A study of Rattus norvegicus with 10 samples.

Results

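The genes described here are Hmmr, Ckap2, Tacc3, Dlgap5, Kifc1, Stmn1, Ska1 and Mad2l1, which encode proteins of the mitotic spindle and of the microtubules from which it is built. They are 8 of 12762 gene symbols on the array and were read by 11 of 26962 probes, since Tacc3, Dlgap5 and Kifc1 have 2 probes each. Ska1 and Dlgap5 carry older names in the array annotation (RGD1310784 and Dlg7). The 8 genes were chosen from their measured difference between the groups compared below, so their values are given as a description without a test.

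The study measured RNA of isolated rat islets after adenoviral delivery of Nkx6.1, a homeodomain transcription factor of the pancreatic beta cell, and of islets that received a beta-galactosidase adenovirus. Islets came from male Sprague-Dawley rats of about 250 g, with about 200 islets per condition. Pools were exposed to AdCMV-Nkx6.1 or AdCMV-βGAL, 2 viruses whose CMV promoter is not restricted to one cell type, for 18 h and were then cultured for 60 h at 8 mM glucose in 10% fetal calf serum. Each group had 5 independent islet pools, called Nkx6.1 replicates 1 to 5 and bGAL replicates 1 to 5, and the control group also carried a virus and a transgene. The 500 ng of total RNA per sample went through 2 rounds of amplification and was labelled with Cy5, and every array shared one rat reference labelled with Cy3. Each islet pool holds several cell types, so a difference in cell numbers and a difference in RNA per cell cannot be told apart.

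When a cell divides, it rebuilds its microtubules into a bipolar spindle. Motor and crosslinking proteins focus the poles, kinetochores attach chromosomes to microtubule ends, and a checkpoint delays separation until attachment is complete. Genes of this machinery are transcribed mainly late in the cell cycle, and most adult islet endocrine cells divide rarely. A repressor complex called DREAM is known to bind the promoters of many of these genes through a CHR element, and the factor NF-Y is known to bind CCAAT boxes in the same promoters.

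RefSeq promoter windows of the GRCr8 rat build, reaching from 250 bases before to 50 bases after the annotated start, were found for 8 of 8 genes. The sequences below are those of 5 genes, shown because they run from 4 CCAAT boxes in Hmmr, through the like arrangement of Tacc3 and Kifc1, to a single CCAAT box and no CHR-type match in Stmn1. Each shows the 250 bases before the start, 5′ to 3′ along the gene's strand. Capitals mark matches to the CHR-type letters TTTGAA or TTTAAA and to CCAAT, and a match on the opposite strand reads TTCAAA or ATTGG. The windows lie at chr10:25665216-25665465 on the minus strand (Hmmr), chr14:81289699-81289948 on the minus strand (Tacc3), chr20:5000679-5000928 on the plus strand (Kifc1), chr16:76541864-76542113 on the plus strand (Ckap2) and chr5:151964929-151965178 on the plus strand (Stmn1).
Hmmr: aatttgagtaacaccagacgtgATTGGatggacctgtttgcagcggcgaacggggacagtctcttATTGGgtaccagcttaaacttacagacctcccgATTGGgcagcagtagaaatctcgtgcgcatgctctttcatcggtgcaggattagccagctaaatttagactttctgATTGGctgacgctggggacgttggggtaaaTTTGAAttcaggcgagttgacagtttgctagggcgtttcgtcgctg
Tacc3: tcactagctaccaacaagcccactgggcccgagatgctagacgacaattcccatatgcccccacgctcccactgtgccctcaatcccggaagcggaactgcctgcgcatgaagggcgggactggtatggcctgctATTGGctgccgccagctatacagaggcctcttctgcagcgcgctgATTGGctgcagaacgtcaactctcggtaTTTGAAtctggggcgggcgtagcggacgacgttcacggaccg
Kifc1: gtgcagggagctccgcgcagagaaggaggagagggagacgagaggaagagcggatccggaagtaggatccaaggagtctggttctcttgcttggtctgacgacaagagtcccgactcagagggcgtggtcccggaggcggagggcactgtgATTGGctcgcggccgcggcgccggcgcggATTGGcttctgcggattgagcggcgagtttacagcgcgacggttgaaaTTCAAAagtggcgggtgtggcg
Ckap2: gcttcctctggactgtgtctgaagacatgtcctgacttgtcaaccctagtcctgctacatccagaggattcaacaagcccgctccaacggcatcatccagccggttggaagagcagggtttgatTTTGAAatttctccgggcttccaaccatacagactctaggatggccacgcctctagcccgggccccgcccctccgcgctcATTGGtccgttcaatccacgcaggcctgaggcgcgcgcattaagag
Stmn1: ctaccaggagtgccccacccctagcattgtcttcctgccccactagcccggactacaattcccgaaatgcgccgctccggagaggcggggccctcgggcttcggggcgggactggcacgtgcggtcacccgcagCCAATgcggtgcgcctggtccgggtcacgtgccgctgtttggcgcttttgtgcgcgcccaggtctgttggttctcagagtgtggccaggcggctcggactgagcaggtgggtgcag

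Searched on both strands over the 300-base windows, a CHR-type match was present in 7 of 8 genes and in 28.3% of all 33469 rat promoter windows (26.4% of 21842 protein-coding ones). Stmn1 was the gene without one. A CCAAT match was also present in 7 of 8 genes, against 37.5% of all windows, and Mad2l1 was the gene without one. In Hmmr, Tacc3 and Kifc1 the sites had a like arrangement, with CCAAT matches upstream of a CHR-type match whose first base lay 46, 42 and 22 bases before the start. The CCAAT match nearest to that site began 76 bases before the start in Hmmr and 70 bases before it in both Tacc3 and Kifc1. Ckap2 had the opposite order, with its CHR-type match 126 bases and its CCAAT match 46 bases before the start. Dlgap5 had a CHR-type match at 159 bases, a CCAAT match at 73 bases and an E2F-type match (GCGGGAA) at 56 bases before the start. The E2F-type letters searched were in 1 of 8 windows and in 4.21% of all windows. Those letters do not cover every form of an E2F site, so the remaining windows cannot be called free of one. The CHR-type matches of Ska1 and Mad2l1 lay after the start, at bases 35 and 28. TAATTA, a core that many homeodomain proteins bind, was in 0 of 8 windows and in 5.36% of all windows. These are matches of letters and say nothing of what is bound in islets.

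**Figure D1:**
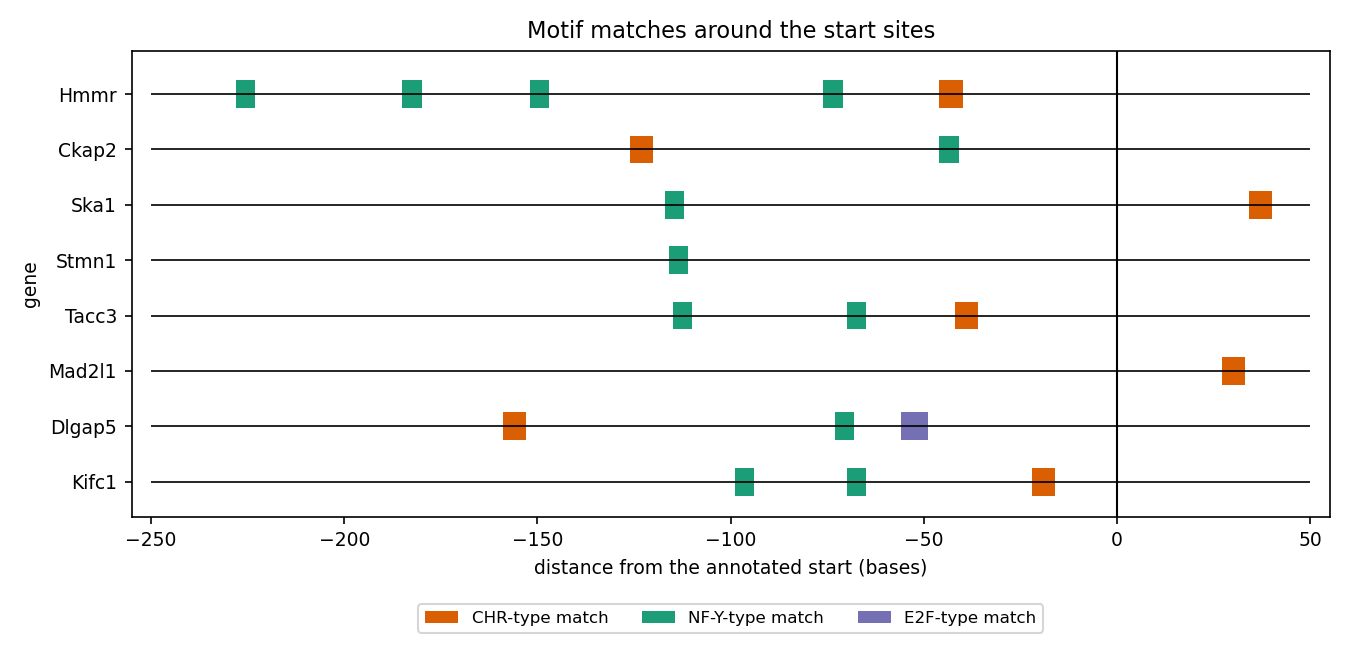
Matches to the CHR-type (orange), CCAAT (green, named NF-Y-type) and E2F-type (violet) letters in the promoter windows of the 8 genes, on either strand, by distance in bases from the annotated start at 0. Hmmr, Tacc3 and Kifc1 have a CHR-type match within 46 bases before the start with CCAAT matches upstream of it, Stmn1 has no CHR-type match and Mad2l1 no CCAAT match.

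The deposited values are log2 ratios. Every probe with 10 values has a median within 0.001 of 0, so such values hold differences between samples and no level of a gene. Not every probe with missing values has that median, since the 4 values of Cenpe Rn30008514 ran from -2.16 to -0.32. The ratio is likely islet over reference, going by the channel labels alone. No source states it, no value here settles it, and every direction given rests on it. In 40.6% of the probes with 10 values, 3 or more samples shared one value to 4 decimals, here called a floored probe. The arrays fell into sets by their share of missing probes, with bGAL replicates 1, 2, 3 and 5 and Nkx6.1 replicate 1 at 27.3% to 32.5% (array set 1) and bGAL replicate 4 and Nkx6.1 replicates 2 to 5 at 0.816% to 9.13% (array set 2). Array set and group therefore largely coincide, and differences within each set are given beside the pooled ones for the 8 genes and for several other named genes. Nkx6.1 replicate 2 stood apart, since its log2 ratios had an interquartile range of 1.09 while the remaining 9 arrays had 0.35 to 0.58. The rat Nkx6-1 probe, which is not known to detect the delivered transgene, read -0.36 ± 0.58 (SD, n = 5) with Nkx6.1 and 0.20 ± 0.31 (n = 5) with bGAL, so it does not check the labels. Across 18546 tested probes, limma called 12 higher and 3 lower with Nkx6.1 at a Benjamini-Hochberg adjusted p under 0.05, while 1651 had an unadjusted p under 0.05.

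All 8 genes had at least 1 probe that read higher in each of the 5 Nkx6.1 samples than in any bGAL sample. This held for all 9 of the probes with 10 values and no floor, and these values chose the genes. By comparison, the groups separated in this direction in 1.69% of the 17744 probes with 10 values, a set that, unlike these 9, includes floored probes. The difference in log2 ratio for the 9 probes ranged from 1.23 (Mad2l1) to 2.07 (Hmmr), with a median of 1.59, which corresponds to 2.34-fold to 4.19-fold. The mean over the 9 probes was -0.92 to -0.51 over the bGAL samples and 0.74 to 1.14 over the Nkx6.1 samples.

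**Figure D2:**
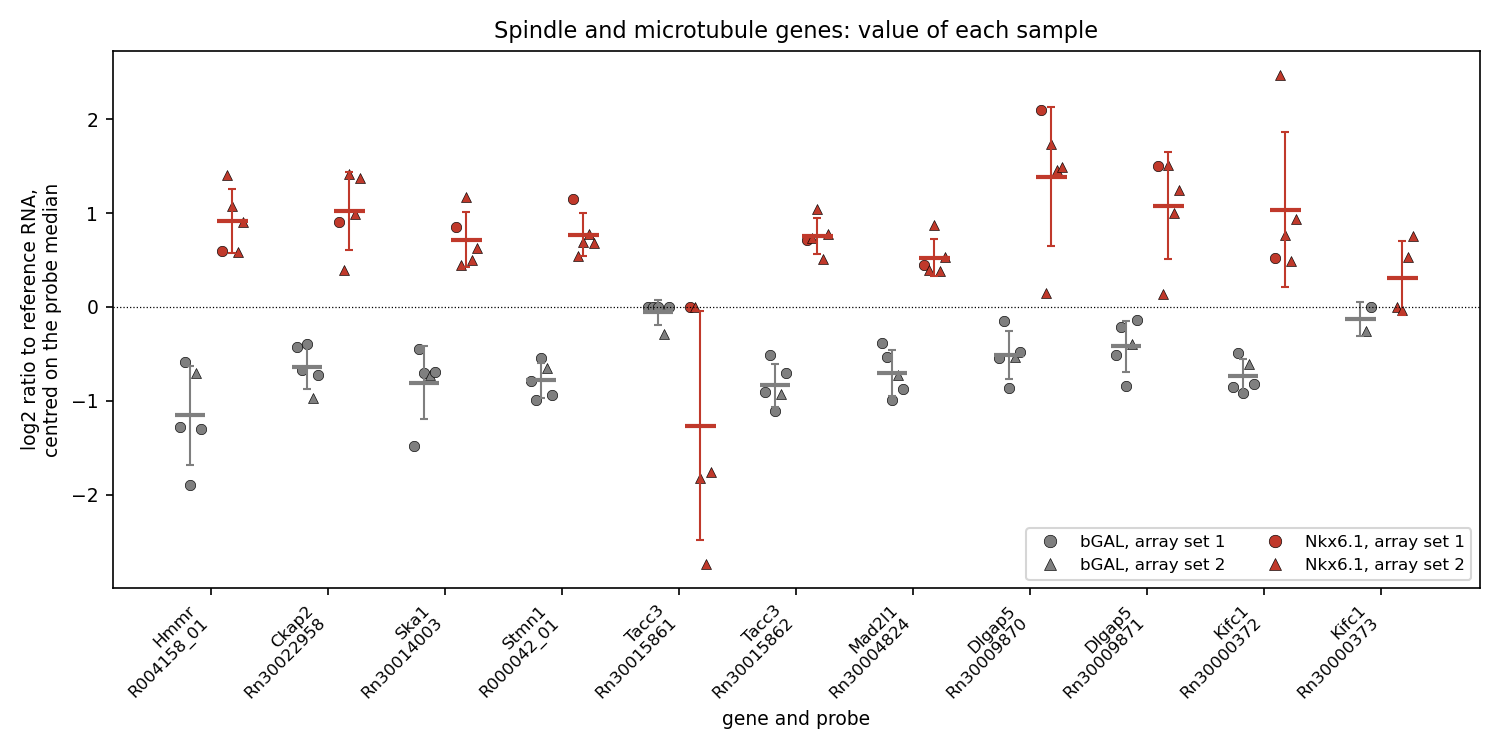
Log2 ratio (y axis, centred per probe) of each probe of the 8 genes in every sample, with bGAL in grey, Nkx6.1 in red, circles for array set 1, triangles for array set 2, and bars for the group mean ± SD. In 9 probes the lowest Nkx6.1 sample lies above the highest bGAL sample, while the floored Tacc3 probe and the incomplete Kifc1 probe overlap.

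Hmmr, the hyaluronan-mediated motility receptor, binds hyaluronan at the cell surface and microtubules at the spindle poles. Its probe (R004158_01) read -1.28, -0.58, -1.90, -0.71 and -1.30 in bGAL replicates 1 to 5 and 0.60, 1.40, 1.07, 0.58 and 0.91 in Nkx6.1 replicates 1 to 5. The bGAL samples were spread more widely than the Nkx6.1 samples, at -1.15 ± 0.53 (SD, n = 5) against 0.91 ± 0.34 (n = 5). The difference of 2.07 was the highest of the 9 probes, with 1.87 within set 1 and 1.70 within set 2.

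Ckap2, cytoskeleton-associated protein 2, binds spindle microtubules and promotes their nucleation. Its values were -0.43, -0.67, -0.39, -0.97 and -0.72 in the bGAL samples and 0.91, 0.39, 1.42, 0.99 and 1.38 in the Nkx6.1 samples. Nkx6.1 replicate 2 was the lowest of its group here, the reverse of its place in Hmmr. The means were -0.64 ± 0.23 (SD, n = 5) and 1.02 ± 0.42 (n = 5), a difference of 1.65, with 1.46 within set 1 and 2.01 within set 2.

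Tacc3, a coiled-coil protein that the kinase Aurora A brings to spindle microtubules, was read by a pair of probes that disagreed. Probe Rn30015862 read -0.91, -0.51, -1.11, -0.93 and -0.71 in the bGAL samples and 0.72, 0.73, 1.04, 0.51 and 0.78 in the Nkx6.1 samples. The groups were tight and far apart, at -0.83 ± 0.23 (SD, n = 5) and 0.76 ± 0.19 (n = 5), and the difference was 1.59, 1.53 within set 1 and 1.70 within set 2. Probe Rn30015861 held one value, 0.00 after centring, in 6 samples, among them 4 bGAL samples. Its remaining values were -0.29 in bGAL replicate 4 and -1.82, -2.74 and -1.76 in Nkx6.1 replicates 3, 4 and 5. Every sample below the shared value belonged to array set 2. The difference of this floored probe was -1.21 over all samples, 0.00 within set 1 and -1.29 within set 2, and averaging the pair left a difference of 0.19 for the gene.

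Dlgap5, also called HURP, bundles microtubules that run to the kinetochores and is another partner of Aurora A. Probe Rn30009870 read -0.54, -0.15, -0.87, -0.54 and -0.48 in the bGAL samples and 2.10, 0.15, 1.74, 1.46 and 1.49 in the Nkx6.1 samples. Probe Rn30009871 read -0.52, -0.22, -0.84, -0.40 and -0.14 in the bGAL samples and 1.51, 0.14, 1.51, 1.0 and 1.25 in the Nkx6.1 samples. Both probes put Nkx6.1 replicate 2 far below the rest of its group and only just above the highest bGAL sample. Differences were 1.90 and 1.5, and rose to 2.21 and 1.74 without that sample. Within array set 1 they were 2.61 and 1.93, and within set 2 they were 1.75 and 1.37.

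Kifc1, a kinesin motor that moves toward microtubule minus ends and focuses spindle poles, showed the opposite pattern in that sample. Probe Rn30000372 read -0.85, -0.49, -0.92, -0.61 and -0.83 in the bGAL samples and 0.52, 2.47, 0.77, 0.49 and 0.94 in the Nkx6.1 samples. Nkx6.1 replicate 2 was far above its group, and the difference was 1.77 with it and 1.42 without it. Array set 1 alone gave 1.29 and array set 2 alone gave 1.77. Probe Rn30000373 had values in only 6 samples and was not tested: -0.26 and 0.00 in bGAL replicates 4 and 5, and 0.00, -0.04, 0.53 and 0.75 in Nkx6.1 replicates 2 to 5, so that its groups overlapped.

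Stmn1, stathmin, binds tubulin dimers and destabilises microtubules, and is held inactive by phosphorylation during mitosis. Its probe (R000042_01) read -0.79, -0.99, -0.54, -0.65 and -0.94 in the bGAL samples and 1.15, 0.54, 0.69, 0.78 and 0.68 in the Nkx6.1 samples. Both groups were tight, at -0.78 ± 0.19 (SD, n = 5) and 0.77 ± 0.23 (n = 5), and Nkx6.1 replicate 1, the only one of its group in array set 1, was the highest. The difference was 1.55, with 1.97 within set 1 and 1.33 within set 2.

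At the kinetochore, Ska1 is a subunit of the complex that holds chromosomes on shortening microtubule ends. Its values were -1.48, -0.45, -0.70, -0.72 and -0.69 in the bGAL samples and 0.85, 0.45, 1.17, 0.50 and 0.62 in the Nkx6.1 samples. One control sample, bGAL replicate 1, lay well below the other 4 controls, and the difference was 1.52 with it and 1.36 without it. Mad2l1, the checkpoint protein that holds back Cdc20 until chromosomes are attached, read -0.39, -0.54, -0.99, -0.72 and -0.88 in the bGAL samples and 0.45, 0.39, 0.87, 0.39 and 0.54 in the Nkx6.1 samples. Its difference of 1.23 (2.34-fold) was the smallest of the 9 probes, with means of 0.53 ± 0.20 (SD, n = 5) and -0.70 ± 0.25 (n = 5). Within array sets 1 and 2 the differences were 1.68 and 1.41 for Ska1 and 1.14 and 1.27 for Mad2l1.

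**Figure D3:**
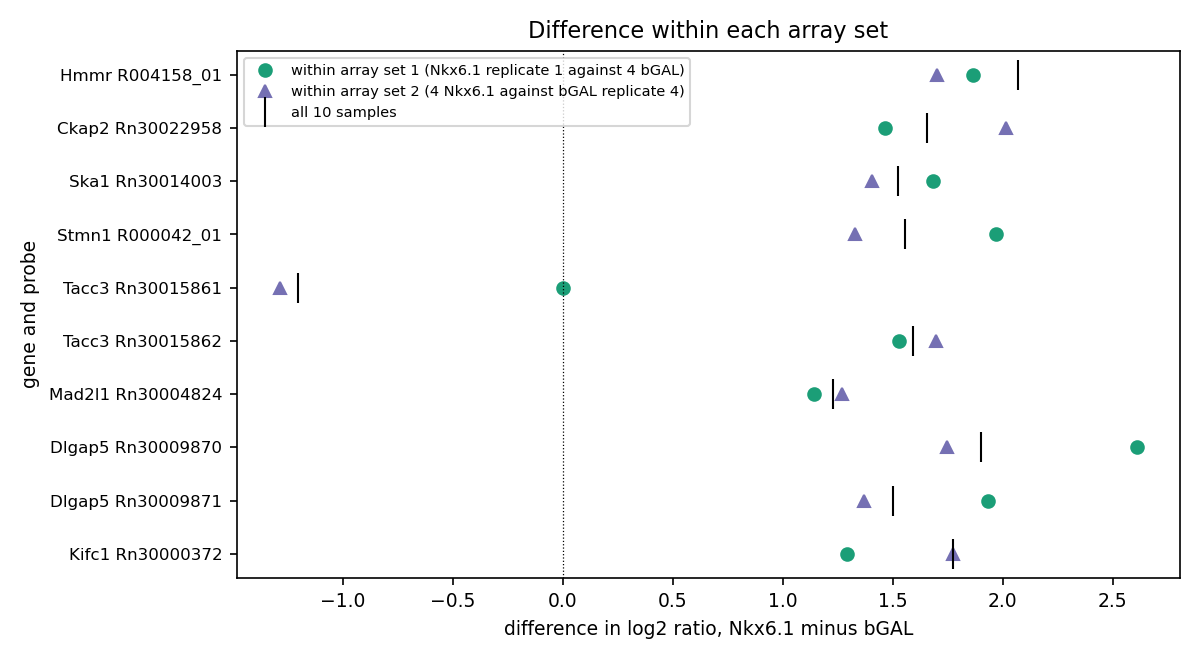
Difference in log2 ratio (Nkx6.1 minus bGAL) of each tested probe of the 8 genes within array set 1 (1 Nkx6.1 against 4 bGAL samples) and within set 2 (4 Nkx6.1 samples against 1 bGAL sample), with lines at the difference over all 10 samples. The 9 probes without a floor lie between 1.14 and 2.61 in set 1 and between 1.27 and 2.01 in set 2, and the floored Tacc3 probe lies at 0.00 and -1.29.

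The 9 probes without a floor differed by 1.14 to 2.61 within array set 1 and by 1.27 to 2.01 within set 2. Each set has a single sample of one group. Because every Nkx6.1 sample exceeded every bGAL sample in these probes, the shared direction was fixed beforehand and is no check on array set. The fit over all probes called 4 of the 10 tested probes of these genes (Hmmr, Ckap2, Stmn1 and Tacc3 Rn30015862), beside 0.0647% of all 18546 probes called higher. With probes averaged per gene it called 5 of 8 genes (Hmmr, Ckap2, Ska1, Stmn1 and Mad2l1), beside 0.110% of 9974 genes. Because the genes were picked on this contrast, nothing is read from either count. The number of probes called went to 0 with array set as a term, to 9 without Nkx6.1 replicate 2, to 2 without Nkx6.1 replicate 1, to 1 on leaving out bGAL replicate 2 or Nkx6.1 replicate 4, and to 0 on leaving out any of bGAL replicates 1, 3 and 5 or Nkx6.1 replicates 3 and 5.

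Other genes of cell division that are not among the 8 were also more often higher than lower. The lists that hold them were chosen with earlier results of these data known, so they are no independent check on the 8 genes. Of 68 listed genes of the spindle checkpoint, of kinetochore attachment and of spindle assembly and cytokinesis, 47 were on the array. Their 56 tested probes had a median difference of 0.66, against -0.03 for all tested probes, and 36 of the 56 were higher with Nkx6.1. Only 1 probe passed the threshold, and 20 higher and 1 lower had an unadjusted p under 0.05, against 778 higher and 873 lower among all tested probes. The groups separated with Nkx6.1 higher in 11 of the 55 probes with 10 values and with Nkx6.1 lower in 0, against 300 and 291 of all 17744. Their median was 0.75 within set 1 and 0.50 within set 2, was lowest at 0.29 with at least 2 values per group, was 0.39 without Nkx6.1 replicate 1 and was 1.09 without floored probes.

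Aurka, the Aurora A kinase that acts on Tacc3 and Dlgap5, was the gene that passed the threshold. Its probe read -0.96, -0.71, -1.34, -0.41 and -0.68 in the bGAL samples and 1.08, 0.41, 1.36, 1.09 and 0.90 in the Nkx6.1 samples, with no overlap. Aurka rose by 1.79 on the log2 scale (SE 0.24, 3.45-fold, adjusted p = 0.0331, limma), with 2.01 within set 1 and 1.34 within set 2. It was higher in 5 of 5 Nkx6.1 samples than in any bGAL sample. Over 17 alternatives its adjusted p ranged from 0.0107 to 0.536 and the call was lost under 11: with the array set term (0.374), under quantile normalisation (0.0676), with replicate numbers as a block (0.536), and when any sample other than bGAL replicate 4 or Nkx6.1 replicate 2 was left out (0.0781 to 0.140). Tpx2, which activates Aurora A on the spindle, had a difference of 1.78 (SE 0.28) that did not pass the threshold (adjusted p = 0.0776, limma), and its groups did not overlap. Its differences were 1.35 within set 1 and 1.52 within set 2. For Ckap5, a microtubule polymerase that partners Tacc3, named after its values were seen, the probes differed by 0.08 and -0.73 (the second by -0.98 within set 1 and -0.34 within set 2) and neither passed.

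Among the genes of spindle assembly and cytokinesis, 25 of 37 tested probes were higher and 12 lower, with a median of 0.56. Leaving out single samples moved that median, to 0.21 without bGAL replicate 5, 0.28 without Nkx6.1 replicate 1 and 0.34 without bGAL replicate 4, and it was 0.29 with at least 2 values per group. The motors Kif22 and Kif20a had differences of 1.09 (adjusted p = 0.0990, limma) and 1.11 (adjusted p = 0.118, limma), both short of the threshold. In the spindle checkpoint list, where 8 of 15 genes were on the array, 6 of 9 tested probes were higher, the median was 1.01 and 0 passed. Ttk, the kinase that starts checkpoint signalling, differed by 1.01 and Cdc20, the anaphase activator that Mad2l1 restrains, by 2.33 (adjusted p = 0.134 and 0.284, limma). For Knl1, the scaffold of checkpoint proteins, the tested probes differed by 1.13 and 1.78 (adjusted p = 0.553 and 0.521, limma), and the second read 3.66 within set 1 and 0.48 within set 2.

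The kinetochore attachment list was evenly split, with 5 of 10 tested probes higher and 5 lower, a median of 0.46 (0.74 without Nkx6.1 replicate 2 and 1.83 without floored probes) and 0 past the threshold. Its probes with the smallest p were those of Cenpt, which links centromeric DNA to the microtubule-binding complex, Cenpe, a kinetochore motor, and Spc25, a subunit of that complex. They differed by 3.22, 1.83 and 0.98 (adjusted p = 0.291, 0.379 and 0.522, limma). The Cenpt controls were widely spread, at -2.47 ± 1.89 (SD, n = 5) against 0.75 ± 0.32 (n = 5), and the difference was 3.19 within set 1 and 2.29 within set 2. Cenpe differed by 1.08 and 1.84 within the sets. All 3 floored probes of this list were lower. The other lower probes were those of Ska2, Rn30018826 and Rn30024277, which differed by -0.69 and -0.27. They read -4.95 and -3.35 in Nkx6.1 replicate 2, against -0.31 to 0.61 and -0.24 to 0.51 in the rest of that group. The Ska2 differences were 0.67 and 0.73 within set 1 and -0.80 and -0.43 within set 2.

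**Figure D4:**
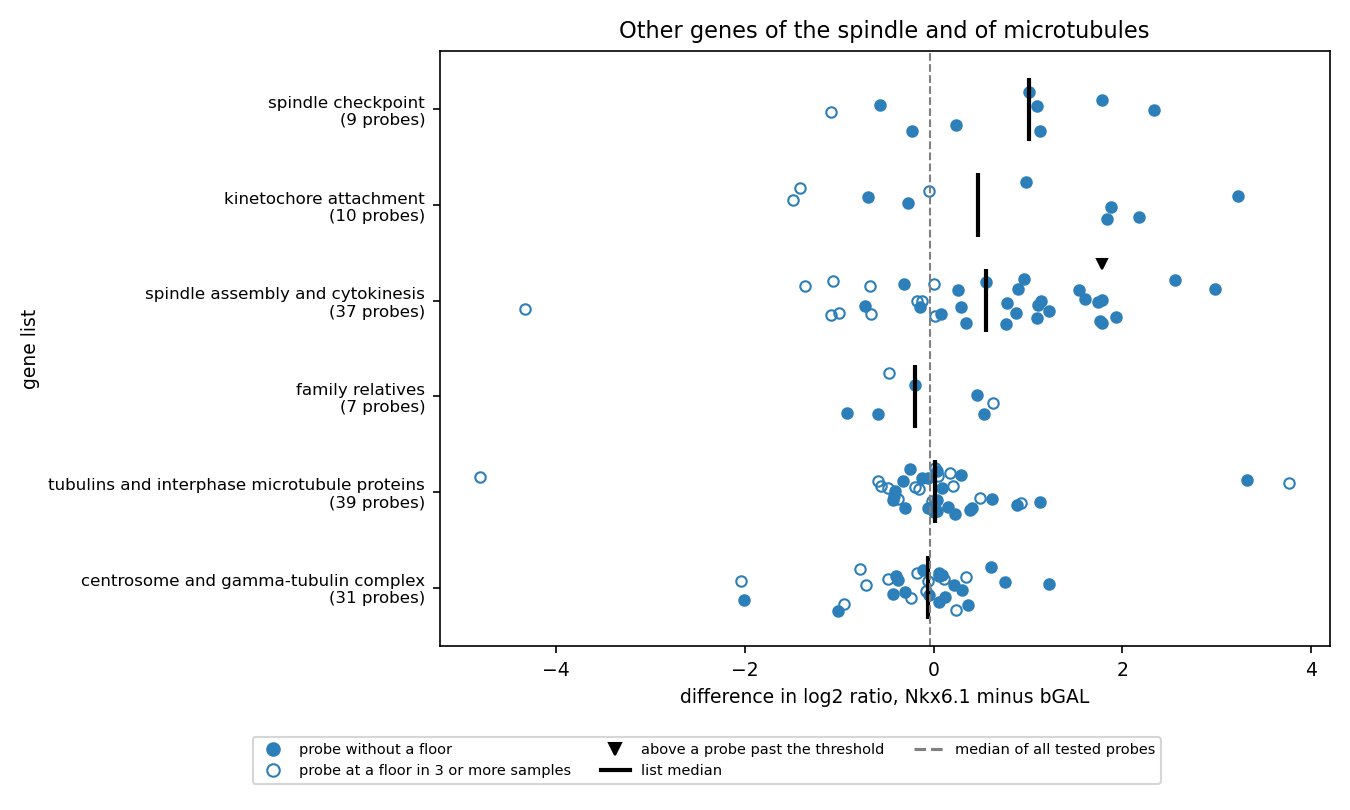
Difference in log2 ratio (Nkx6.1 minus bGAL, x axis) of every tested probe in 6 gene lists, with filled points for probes without a floor, open points for floored probes, black bars for list medians and a dashed line for the median of all tested probes at -0.03. The triangle marks Aurka, the probe past the threshold, and open points lie mostly to the left in the first 3 lists.

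Over all 10 samples, floored probes ran the other way in these 3 lists, as the floored Tacc3 probe did. Of the 41 tested probes without a floor, 34 were higher with Nkx6.1 (median 1.09), while 13 of the 15 floored ones were lower (median -1.01). Some of the 41 had one value in 2 samples, as Kif23, Espl1 and Spag5 did in bGAL replicate 3 and Nkx6.1 replicate 1. The rule of 3 or more samples does not count these as floored. Among all tested probes, 46.2% of those without a floor and 49.1% of floored ones were higher. In 13 of the 15 floored probes of the dividing-cell lists the mean of array set 2 lay below the shared value, whereas in 13 of 14 floored probes of islet secretory and neuroendocrine genes, a list drawn up after the values were seen, it lay above. Over all 7209 floored probes with 10 values it lay above in 55.1%. Within array set 2 alone, with its single bGAL sample, the floored probes of the dividing-cell lists differed in both directions. Kif11 Rn30015315, Kif15 Rn30003704 and Ect2 read 2.17, 0.80 and 0.70 there, and Ska3, Spdl1 and Kif15 Rn30023737 read -1.23, -0.47 and -0.44. Since 4 of the 5 samples of array set 2 are Nkx6.1 samples, the share that array set has in the direction of a floored probe was not tested.

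Tubulins and centrosome genes, some of which also act in dividing cells, were split nearly evenly. For tubulins and interphase microtubule proteins, 21 of 39 tested probes were higher and 18 lower, with a median of 0.01 and 0 past the threshold (5 higher and 0 lower at an unadjusted p under 0.05). The beta-tubulins Tubb5 and Tubb6 and the plus-end protein Clip2, with the smallest p of that list, differed by 0.61, 3.32 and 1.12 (adjusted p = 0.456, 0.484 and 0.491, limma). Tubb6 depended on the array set, with 5.71 within set 1 and 0.54 within set 2. For the centrosome and gamma-tubulin complex, 14 of 31 were higher and 17 lower, with a median of -0.06 and 0 past the threshold at either side, also at an unadjusted p under 0.05. The nucleation subunit Tubgcp3 and the centriolar proteins Pcm1 and Cep250 differed by -0.48, -0.43 and 1.22 (adjusted p = 0.571, 0.574 and 0.577, limma). Within sets 1 and 2 these were 0.03 and -0.49 for Tubgcp3, -0.21 and -0.25 for Pcm1, and 1.64 and 0.50 for Cep250. Both list medians changed sign with an array set term, to -0.05 for the tubulins and 0.12 for the centrosome. The difference between these lists and those of dividing cells was not tested.

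Relatives of the 8 genes that act mainly outside division were also measured, with 11 of 13 on the array and 7 probes of 6 genes tested. The stathmins of neurons, Stmn2 and Stmn3, differed by 0.53 and -0.59, beside 1.55 for Stmn1. Neither held a steady value across the array sets, since Stmn2 read 2.88 within set 1 and 0.35 within set 2, and Stmn3 read -2.22 and 0.73. Tacc1, whose tested probe was floored with one value in 6 samples, differed by 0.63 (0.00 within set 1 and 0.23 within set 2). The synaptic scaffold genes Dlgap1 and Dlgap4 differed by 0.46 (0.61 and -0.07) and -0.20 (-0.26 within set 2, with no Nkx6.1 value in set 1). Cd44, a hyaluronan receptor like Hmmr, had probes at -0.47 and -0.92. The first was floored with one value in 5 samples, and the second read 2.11 within set 1 and -1.60 within set 2. None of the 7 passed the threshold by limma (0 at an unadjusted p under 0.05), and their median of -0.20 changed sign with an array set term (0.11), with gene means (0.06) and without bGAL replicate 5 (0.09). Probes of Dlgap2, Dlgap3, Stmn4, Kifc3 and Tacc2 had too few values to be tested.

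Within the groups, the 8 genes varied together only in part. After each group's mean was taken away, the 36 pairs of the 9 probes had Pearson correlations from -0.81 to 0.95 over the 10 samples, with a median of 0.16 and 24 pairs above 0. The highest was that of the Dlgap5 probes with each other, and the lowest that of Kifc1 with Dlgap5 Rn30009870, which lie at opposite ends in Nkx6.1 replicate 2. Against the mean of the other 8 of these probes, Tacc3 Rn30015862 had the highest correlation (r = 0.81), followed by Dlgap5 Rn30009871 (0.57), Mad2l1 (0.56), Ska1 (0.50), Dlgap5 Rn30009870 (0.37), Hmmr (0.20) and Ckap2 (0.08), with Stmn1 (-0.29) and Kifc1 (-0.53) below 0. The mean set against each Dlgap5 probe holds the other Dlgap5 probe, so all Dlgap5 values here are in part the gene against itself. With the floored Tacc3 probe in the mean, Tacc3 Rn30015862 read 0.74, Dlgap5 Rn30009870 and Rn30009871 read 0.13 and 0.28, and Ckap2 read -0.20. On that 10-probe mean, leaving out Nkx6.1 replicate 2 gave 0.80 and 0.79 for Dlgap5 Rn30009870 and Rn30009871 and turned Kifc1 from -0.25 to 0.43. The median over the 10 probes went from 0.20 to 0.41. These points share 10 arrays and their normalisation. Over all probes with 10 values, the correlation with the 10-probe mean had 5th and 95th percentiles of -0.41 and 0.45. The values from 0.81 to -0.53 above rest on another mean, without the floored probe. Of 10987 other probes with a symbol, those most like the 10-probe mean were Ahr (0.83), Fbxw2 (0.82), Rasd1 (0.81), Maob (0.80) and Nr1h4 (0.80). Against the 9 probes without a floor the same genes read 0.81, 0.75, 0.65, 0.86 and 0.59, so their order rests on the floored probe. Their own differences between the groups were -0.58, -0.11, 0.38, -0.45 and -0.03, beside 1.23 to 2.07 for the 9 probes.

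**Figure D5:**
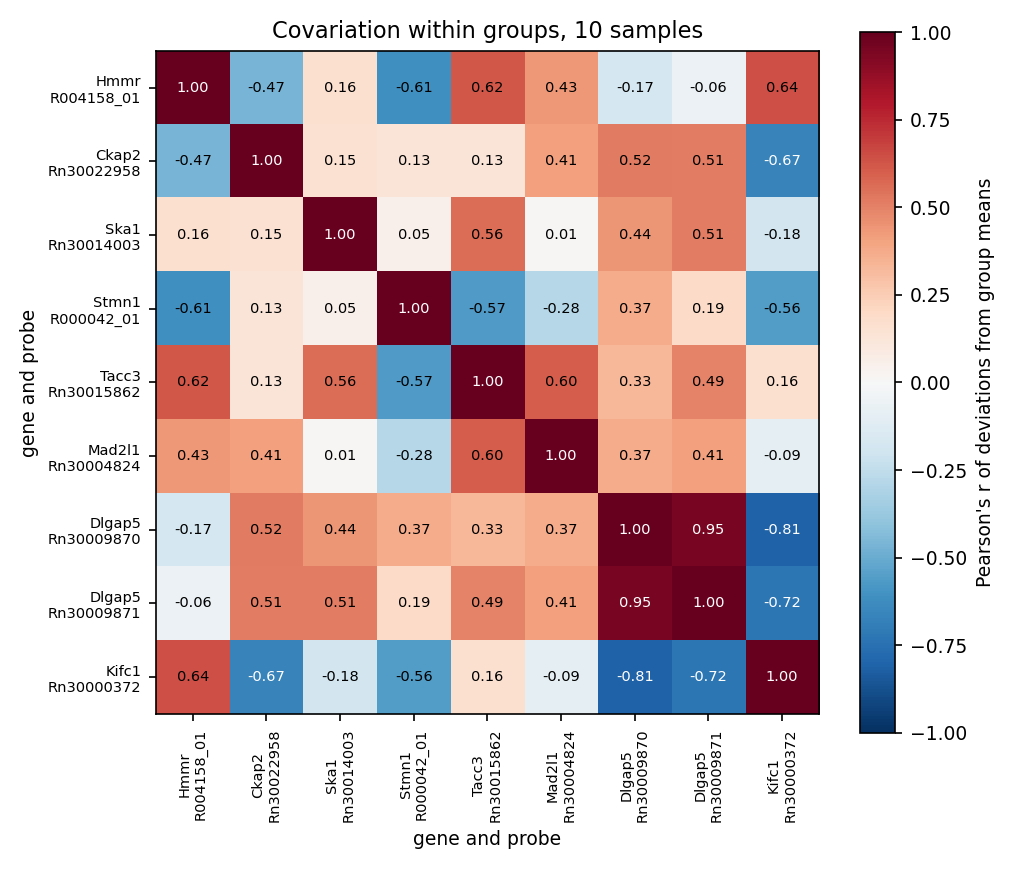
Pearson correlation over 10 samples between the 9 probes without a floor, after the group mean of each probe was taken away, as a colour scale from -1 to 1 with the value in each cell. The Dlgap5 probes correlate at 0.95 with each other and at -0.81 and -0.72 with Kifc1.

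Markers of cell types that an islet preparation can hold were read beside these results, as means of each list per sample. The macrophage and leukocyte list was lower with Nkx6.1 in 14 of 16 tested probes (median -0.93, -0.96 within set 1, -0.41 within set 2, and -0.61 with an array set term), 0 of them past the threshold, and its mean lay between -0.58 and -0.20 in the Nkx6.1 samples and between 0.12 and 1.70 in the bGAL samples. All 5 tested delta and PP cell probes were lower (median -1.09, and -1.19 with an array set term), with list means from -1.23 to 0.70 against 0.37 to 0.64. The delta cell factor Hhex fell by 1.82 and Rbp4 fell by 2.92 on the log2 scale (adjusted p = 0.0322 and 0.0149, limma), and neither passed with an array set term. Beta cell probes were higher in 4 of 5 (median 0.69). The lower one was the rat Nkx6-1 probe (-0.56), so this list holds the gene of the delivered factor. Its list means overlapped, at -0.32 to 1.63 against -0.38 to 0.31. The beta cell median was 0.32 with an array set term, -0.08 within set 1 and 0.87 within set 2. Duct, acinar, endothelial, stellate and alpha cell lists had medians of 0.69, 0.59, -0.02, -0.33 and 0.19 and 0 probes past the threshold. With an array set term these medians were -0.10, 0.41, 0.10, -0.28 and 0.35, so the duct and endothelial ones changed sign. Centred values cannot show whether any of these markers is absent. The part of these shifts in the higher values of the 8 genes was not tested.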

How the data were processed

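Gene expression was measured on spotted 2-colour arrays in 10 islet samples. The deposited values are log2 ratios, Cy5 islet RNA against Cy3 reference per the labels. The base, and the centring on the median of each probe with 10 values, were read from the values. The direction of the ratio is likely but not stated. No source used here gives the authors' background correction, normalisation or filters. No scanner intensities were used, and precision is limited by the 10 arrays. Values were used as deposited, with 0 sample columns left aside and 22 control probes removed. Of 26962 probes, 15807 had one gene symbol, 0 had several and 11155 had none. 3713 symbols were updated through RefSeq synonyms. Probes with at least 3 values per group were fitted with limma 3.58.1 in R 4.3.3 (lmFit, eBayes, 2-sided, Benjamini-Hochberg over all tested probes, threshold 0.05), after a test on simulated data. The 8 genes and all lists were chosen with earlier results of these data known. The genes named are the 8, each list's called genes and its 3 probes with the smallest p, the measured relatives, and the 5 probes most like the 8 within groups. Ckap5, Ska2, Rbp4 and Hhex were named after their values were seen. Alternatives covered quantile normalisation, array set, replicate blocks, filters, gene means and each sample left out. Replicate numbers were not used as pairs. Some genes are not reported here.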

Additional observations from a re-analysis of the deposited data

Results flagged for a closer look

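Outlying samples were looked for in 21 groups of the probes of the 8 genes, by the gap of the highest or lowest sample relative to the group's range, and 3 were found. Chance marks about 1 group in 20 where values vary freely, which does not hold for the floored Tacc3 probe. Ska1 read -1.48 in bGAL replicate 1, against -0.72 to -0.45 in the other bGAL samples. Kifc1 Rn30000372 read 2.47 in Nkx6.1 replicate 2, while the rest of that group read 0.49 to 0.94. Tacc3 Rn30015861 read -0.29 in bGAL replicate 4, while the other bGAL samples shared one value, so any departure from it would be found.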

How the results depend on the processing

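All 153 values of the 9 unfloored probes of these genes (17 alternatives each) were above 0, from 0.19 to 2.50. That sign carries little weight, because the groups did not overlap in these probes and leaving out a sample could not turn it. The replicate block and the probe filters returned the same differences as the main fit. The 0.19 is the mean of both Tacc3 probes, which reversed the floored Tacc3 probe (-1.21). Counts of calls changed with the processing. Probes higher with Nkx6.1 (12) numbered 23 under quantile normalisation, 0 with the array set term, 0 with the replicate block and 2 to 36 when a sample was left out. Those lower (3) numbered 0 with the array set term, 0 with the replicate block and 0 to 14 when a sample was left out. Probes of the 8 genes called (4) numbered 0 with either term and 0 to 9 when a sample was left out. With the replicate block 1413 probes, and with the array set term 842, had an unadjusted p under 0.05, against 1651 without them and 927 for 5% of those tested. Same-numbered samples correlated at -0.11 to 0.13 over 5 pairs, and 3 of 10 samples correlated best with their own number, so the numbers were not taken as pairs. The pairs numbered 1 and 4, which lie within one array set, gave 0.13 each, and whether a number marks a shared islet preparation is not stated. A call lost under the block is therefore not read as a weaker effect. Calls in spindle assembly and cytokinesis (1) numbered 2 under quantile normalisation (Pttg1 and Tpx2), 2 without floored probes (Aurka and Tpx2), 0 with the array set term, 0 with the replicate block, and 0 to 2 when a sample was left out. The spindle checkpoint median (1.01) was 0.62 with gene means. The kinetochore attachment median (0.46) was 1.83 without floored probes and 1.22 with gene means. The causes of these shifts were not tested. The median within-group correlation of 0.20 became 0.37 without the floored Tacc3 probe, an alternative chosen after seeing the data.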
